A study of Mus musculus with 5 samples.

Results

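The potassium channel genes were taken as the protein-coding genes of the GENCODE M21 annotation (mouse build GRCm38) whose symbol starts with Kcn. There were 94 such genes among 21938 nuclear protein-coding genes, and the rule uses the symbol alone. They lay on 19 chromosomes. For each gene, peaks of the histone mark H3K27me3 were counted within 1 kb of the 5′ end, here called the promoter, and in the gene body extended by 5 kb at each end, here called the locus.

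Potassium channels let potassium ions leave or enter a cell and so set its resting membrane potential and the shape and timing of electrical signals. Voltage-gated channels (Kcna, Kcnb, Kcnc, Kcnd, Kcnh and Kcnq) open on depolarization, inward rectifiers (Kcnj) hold the resting potential, two-pore-domain channels (Kcnk) carry background leak currents, and calcium- or sodium-activated channels (Kcnma, Kcnn, Kcnt and Kcnu) open with the level of those ions inside the cell. Electrically silent subunits (Kcnf, Kcng, Kcns and Kcnv) form no current alone and modify Kcnb channels, while accessory proteins (Kcnab, Kcne, Kcnip, Kcnmb and Kcnrg) bind the pore-forming subunits. Many of these genes are known for their expression in neurons and muscle. H3K27me3, trimethylation of lysine 27 on histone H3, is placed by Polycomb repressive complex 2, of which Ezh2 is the catalytic subunit, and is found at silent developmental and tissue-specific genes, often at CpG-rich promoters.

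The mark was profiled by chromatin immunoprecipitation and sequencing (ChIP-seq) in mesenchyme of molars from wildtype C57BL/6 mice at postnatal day 3, after removal of the epithelium. All 5 libraries shared this genotype, strain, tissue and age, with no treatment: 2 H3K27me3 libraries, 2 input libraries of chromatin before immunoprecipitation, and 1 IgG library from a nonspecific antibody. No label ties an H3K27me3 library to particular animals, so the 2 replicates may be technical. Peaks were called per library, giving 3 lists, namely replicate 1 against its input, replicate 1 against IgG, and replicate 2 against its own input. The lists against input and against IgG of replicate 1 hold the same H3K27me3 library and are not independent.

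The lists held 22757, 24881 and 33379 peaks from H3K27me3 libraries of 31245609 tags (replicate 1) and 50565700 tags (replicate 2). Many peaks rested on few tags: 44.5% of the peaks of replicate 1 against input had the lowest pileup of their list, which is 4 tags, and 37.9% of those of replicate 2 had theirs, which is 6 tags. The 39 Hox genes, well-known targets of the mark, had a promoter peak in both replicates in 24 cases. A histone mark does not measure expression, and of the markers by which the tissue could be checked 1 of 10 dental mesenchyme markers (Pax9), 0 of 8 dental epithelium markers and 1 of 6 neuronal markers (Elavl3) had a promoter peak in both replicates. With 2 replicates there was no test over samples. The Kcn counts are descriptions, set beside the same counts over all protein-coding genes where these are given. Intervals are 95% Wilson intervals that cover counting error only.

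In 5 of the 94 genes (5.32%, beside 1.04% of all protein-coding genes) both replicates placed a peak at the promoter. Among them were the leak channels Kcnk9, Kcnk4 and Kcnk12 and the voltage-gated channel Kcnb2. To show what lay under these peaks, all bases that the peaks of both replicates shared are printed for Kcnb2, the coding part of those bases for Kcnk9 (the shared bases before the coding start and upstream of the gene are left out), and the 250 bases before the 5′ end for Kcnk12, where the peaks of the replicates did not overlap. Bases come from the RefSeq GRCm38.p6 sequence, 5′ to 3′ on the strand of the gene, with each CpG dinucleotide in capitals. No stretch is printed for Kcnk4.

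Kcnk9, the 75 coding bases among those shared by both replicates, from the start of the coding sequence, chr15:72546205-72546279, minus strand:
Kcnk9: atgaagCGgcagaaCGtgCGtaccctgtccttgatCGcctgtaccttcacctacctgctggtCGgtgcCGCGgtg
Kcnb2, 88 bases shared by both replicates in the intron after the first exon, chr1:15288012-15288099, plus strand:
Kcnb2: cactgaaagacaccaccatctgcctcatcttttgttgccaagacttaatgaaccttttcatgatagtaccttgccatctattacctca
Kcnk12, 250 bases before the 5′ end, with 0 bases in a peak of any list, chr17:87797995-87798244, minus strand:
Kcnk12: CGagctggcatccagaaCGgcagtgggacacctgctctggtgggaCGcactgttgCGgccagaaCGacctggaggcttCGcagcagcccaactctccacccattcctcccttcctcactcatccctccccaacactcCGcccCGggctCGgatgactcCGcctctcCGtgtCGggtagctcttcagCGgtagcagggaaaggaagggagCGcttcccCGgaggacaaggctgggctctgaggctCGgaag

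The 75 bases printed for Kcnk9 held 7 CpG dinucleotides and the 88 shared bases of Kcnb2 held 0. Before the 5′ end, Kcnk12 held 16, against a median of 8 in the same 250 bases both over the 94 Kcn genes and over all protein-coding genes. At least 1 CpG was present there in 97.9% of Kcn genes and 92.4% of all genes. The letters describe the sequence and locate no binding site.

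Kcnk9, which encodes the acid-sensitive leak channel TASK-3, was the gene at which the lists coincided most closely over the 5′ end. Its replicate 1 peak spanned chr15:72546205-72546406 (202 bp, fold enrichment 2.64 over the local background) and its replicate 2 peak chr15:72545812-72546372 (561 bp, fold enrichment 2.46), and both crossed the 5′ end of the gene. Against IgG, replicate 1 gave a peak at almost the same place, 195 bp long with a fold enrichment of 2.87. A second promoter peak of replicate 2 began 806 bp upstream. The peak with the highest fold enrichment in replicate 1 at any Kcn locus, 4.01 over 302 bp, was also at Kcnk9, with its midpoint 2603 bp upstream, and was present against IgG (fold enrichment 3.71) while no replicate 2 peak overlapped it. Peaks covered 1.39% of the Kcnk9 locus in replicate 1 and 1.91% in replicate 2.

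At Kcnb2, which encodes the delayed rectifier Kv2.2, the promoter peaks of both replicates lay in an intron, with midpoints 793 and 821 bp inside the gene. The replicate 1 peak was 105 bp long at a mean pileup of 5.14 tags (fold enrichment 3.17), and the replicate 2 peak was 128 bp long at 6.00 tags (fold enrichment 2.40), the lowest pileup of that list. It was the only Kcn promoter peak of replicate 1 with p of 0.001 or lower, and an IgG-called peak of 70 bp lay at the same place. Kcnk4 encodes the mechanosensitive leak channel TRAAK. Its peaks, of 122 bp in replicate 1 and 291 bp in replicate 2, overlapped and began 138 and 174 bp inside the gene. The replicate 1 peak touched an exon and the replicate 2 peak was intronic. They had fold enrichments of 2.59 and 2.38, and no IgG-called peak lay at this promoter.

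At Kcnk12 the replicates marked different bases of the promoter. This gene, which encodes the leak channel THIK-2, had a replicate 1 peak of 46 bp that started 909 bp inside the gene and a replicate 2 peak of 131 bp that started 237 bp inside it. The replicate 1 peak was as short as the modelled fragment length of that library. Kcnb2 and Kcnk9 were among the 3 Kcn genes with a promoter peak in all 3 lists.

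**Figure D1:**
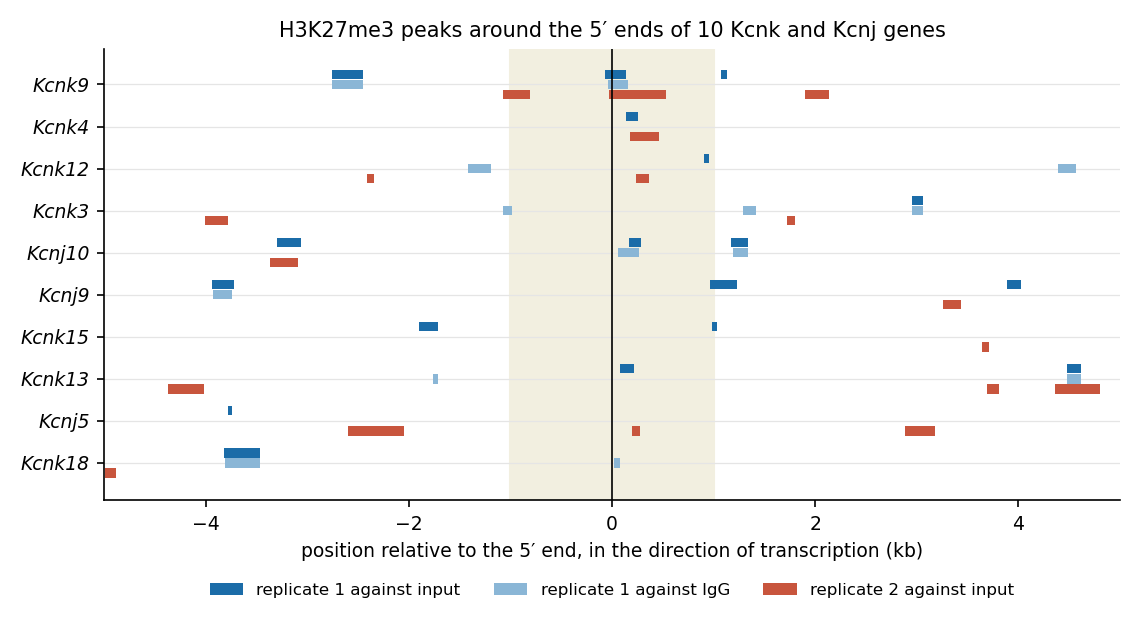
Peaks around the 5′ ends of the 10 two-pore-domain and inward rectifier genes with a peak within 5 kb in both replicates. The horizontal axis is the position in kb in the direction of transcription, bars are peaks at their true length, colors are the 3 lists and the shaded band is the 1 kb on each side. Bars of both replicates share bases inside the band only at Kcnk9 and Kcnk4.

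Over all members, 21 of 94 Kcn promoters held a peak in replicate 1 (22.3%, interval 15.1% to 31.8%), where 3.87% of all protein-coding promoters did. Called against IgG, the count was again 21 (22.3%), beside 4.52% of all promoters. In replicate 2, 16 Kcn promoters held a peak (17.0%, interval 10.8% to 25.9%), beside 4.16% of all. For the 5 genes with a promoter peak in both, the share of 5.32% had an interval of 2.29% to 11.9%. The mean of the replicates was 19.7% ± 3.76 (SD, n = 2) for Kcn promoters and 4.02% ± 0.200 (SD, n = 2) for all promoters. In each list and in both replicates together, the Kcn interval lay above the share of all promoters. The intervals treat genes as independent and do not cover variation between libraries, so this is a description and no test.

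The single genes agreed between replicates much less than the shares did. The 5 shared genes were 23.8% of the 21 of replicate 1 and 31.3% of the 16 of replicate 2, and over all protein-coding genes the corresponding shares were 26.8% and 25.0%. Promoters with a peak in replicate 1, in replicate 2 and in both numbered 21, 16 and 5 of 94 Kcn genes, beside 850, 912 and 228 of 21938 genes. A peak was found in replicate 1 alone at 16 Kcn promoters and in replicate 2 alone at 11. In at least 1 replicate, 32 of 94 promoters thus held a peak, beside 1534 of 21938 over all protein-coding genes. A further 9 held one only when replicate 1 was called against IgG: the voltage-gated genes Kcnd3, Kcnh2, Kcnh6 and Kcnq1, the two-pore-domain genes Kcnk3, Kcnk7 and Kcnk18, and the electrically silent Kcns1 and Kcns3. In all, 41 Kcn promoters held a peak in 1 list or more. This count has no counterpart over all genes here, so it does not set the Kcn genes apart.

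**Figure D2:**
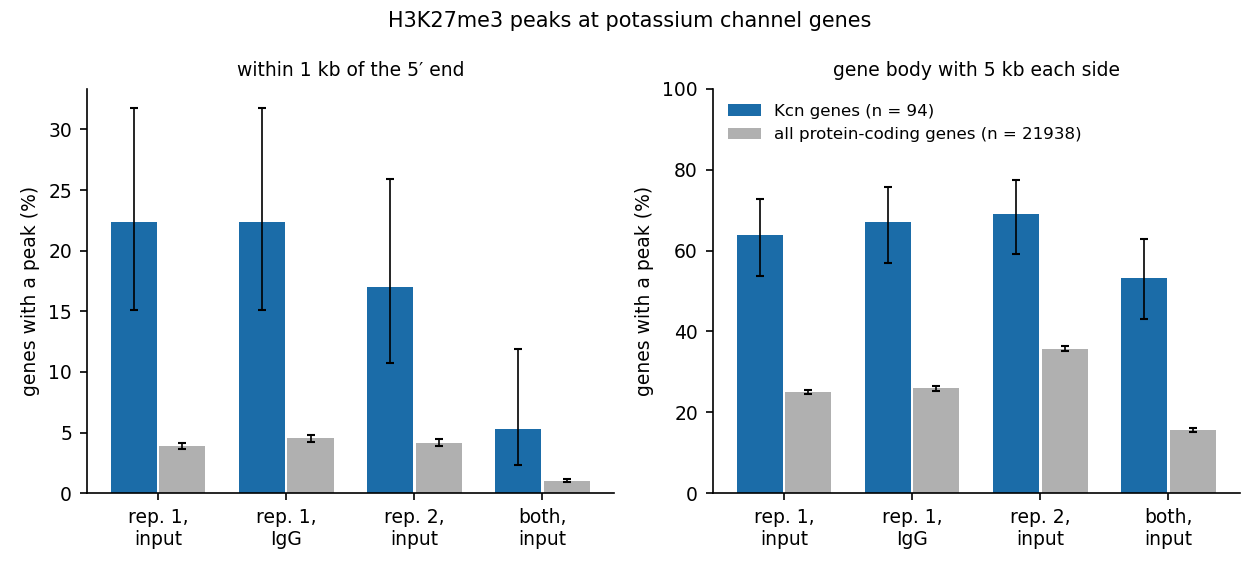
Percent of genes with a peak at the promoter (left) and in the locus (right) for each list and for both replicates against input, with 95% Wilson intervals as error bars. Blue bars are the 94 Kcn genes and gray bars all 21938 protein-coding genes, and each blue bar stands above its gray neighbour, by 22.3% against 3.87% at promoters of replicate 1.

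Among the genes with a promoter peak in replicate 1 only were 7 voltage-gated members. Kcna2, which encodes the axonal channel Kv1.2, had a 91 bp peak that ended 47 bp upstream of the 5′ end, and Kcnd2, which encodes the A-type channel Kv4.2, had a 53 bp peak 94 bp upstream. Kcnc4 encodes a fast Kv3 channel, and Kcnh3, Kcnh5 and Kcnh8 belong to the ether-à-go-go group. The Kcnc4 peak of 213 bp touched an exon and was found against IgG as well. At Kcnh8 the replicate 1 peak, 386 bp upstream, was 108 bp long and reached a mean pileup of 7.55 tags, with a fold enrichment of 2.61, and its IgG-called counterpart had a fold enrichment of 3.51.

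The inward rectifiers with a promoter peak in replicate 1 only were Kcnj9, Kcnj10 and Kcnj12. Kcnj10 encodes Kir4.1, the main glial potassium channel, and its 118 bp peak lay 169 bp inside the gene and was seen against IgG too. The two-pore-domain genes of this set were Kcnk10, Kcnk13 and Kcnk15. The peak of Kcnk13, 131 bp long, lay 84 bp inside the gene, while that of Kcnk15 was 46 bp long and lay 987 bp inside, close to the edge of the window. Kcng3, an electrically silent subunit, Kcnu1, a sperm channel, and Kcnrg, a regulator of channel assembly, made up the rest. Of the 21 genes of replicate 1, 9 also had a promoter peak against IgG, among them Kcnb2, Kcnc4, Kcnh3, Kcnh5, Kcnh8, Kcnj10, Kcnk9 and Kcnk10. This overlap is not set beside all genes here.

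In replicate 2 only, the promoters with a peak included those of the voltage-gated genes Kcna6, Kcnc1, Kcnc2, Kcnh4 and Kcnh7, the electrically silent Kcng4, the inward rectifier Kcnj5, the calcium-activated Kcnn4 and the accessory genes Kcne1l and Kcnmb3. The peak of Kcna6, 355 bp long, crossed the 5′ end. Kcnc1 had a 265 bp peak that ended 308 bp upstream, and Kcnc2 had a 535 bp peak that touched an exon, inside which an IgG-called peak of replicate 1 (97 bp) lay. In replicate 2, 3 promoter peaks had p of 0.001 or lower: those of Kcnj5 (fold enrichment 2.86), which encodes a subunit of the cardiac muscarinic channel, Kcng4 (fold enrichment 2.86) and Kcnmb3 (fold enrichment 2.81), a beta subunit of the large-conductance calcium-activated channel. At Kcn promoters the fold enrichment of a replicate 1 peak was at least 2.58 and at most 3.17, and that of a replicate 2 peak at least 2.38 and at most 2.86. They were not compared between replicates, whose depths differ.

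The classes of channel contributed unequally. Of the 30 voltage-gated genes, 9 had a promoter peak in replicate 1, 12 against IgG, 8 in replicate 2 and 2 in both replicates. Among 14 two-pore-domain genes the counts were 6, 5, 3 and 3, and all 3 genes of replicate 2 were also in replicate 1. Inward rectifiers gave 3, 1, 1 and 0 of 15 genes, and electrically silent subunits 1, 3, 1 and 0 of 10. For the 8 calcium- or sodium-activated genes the counts were 1, 0, 1 and 0, and for the 17 accessory genes 1, 0, 2 and 0. Differences between classes were not tested.

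Peaks were common in the wider loci. In replicate 1, 60 of 94 Kcn loci held a peak (63.8%), beside 25.0% of all protein-coding loci. Called against IgG, 63 Kcn loci (67.0%) held one, beside 25.9% of all, and in replicate 2 the count was 65 (69.1%), beside 35.7%. In 50 Kcn loci a peak was present in both replicates (53.2%, interval 43.2% to 63.0%), beside 15.7% of all loci. These 50 loci were 83.3% of the loci of replicate 1 and 76.9% of those of replicate 2, against 62.6% and 43.9% for all protein-coding genes. Such shares rise with the share of loci that hold a peak in the other replicate. That share was 69.1% and 63.8% for Kcn loci, beside 35.7% and 25.0% for all. The higher values therefore do not show closer agreement of the replicates at Kcn loci. A locus thus carried a peak in both replicates far more often than a promoter did, and the peaks need not share bases.

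By class, a peak in both replicates was found in 19 of 30 voltage-gated loci, 10 of 14 two-pore-domain loci, 8 of 15 inward rectifier loci, 5 of 10 electrically silent loci, 4 of 8 calcium- or sodium-activated loci and 4 of 17 accessory loci. Among them were 6 of 8 Kcnh loci (median length 166 kb), while none of the 5 Kcne loci (median 15.7 kb), for small single-span subunits, was. Subfamily and locus length cannot be told apart in these counts.

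Loci differ in length, and long loci have more room for a peak. The Kcn loci had a median length of 40.8 kb, beside 27.4 kb for all protein-coding genes, and the locus counts moved with length. Within the quartiles of length set over all genes, from shortest to longest, a peak in both replicates was present in 1 of 12, 5 of 23, 13 of 20 and 31 of 39 Kcn loci, which is 8.33%, 21.7%, 65.0% and 79.5%. The same shares over all protein-coding loci were 6.00%, 6.69%, 10.03% and 39.97%. Length still varied within a quartile, from 55.3 to 1145 kb over the Kcn loci of the longest. Peaks per Mb in that quartile numbered 10.8 in replicate 1 and 15.4 in replicate 2 at Kcn loci, beside 8.82 and 13.6 over all loci, a smaller gap. In the shortest quartile the share of Kcn loci with a peak in both replicates, which rests on 1 locus, was near the share of all loci. In the other quartiles it was higher. Taken singly, replicates 1 and 2 had a peak in 5 and 4 of the 12 shortest Kcn loci. These shares, 41.7% and 33.3%, stood beside 12.7% and 15.8% of all loci of that quartile.

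Promoter windows have equal length, and their shares moved less with the length of the locus. From the shortest to the longest quartile, replicate 1 had a peak at 2 of 12, 4 of 23, 3 of 20 and 12 of 39 Kcn promoters, and replicate 2 at 1, 3, 5 and 7. In the longest quartile that is 30.8% and 17.9%. Over all promoters the shares stayed between 3.21% and 4.81% in replicate 1 and between 3.14% and 4.98% in replicate 2. Of the 5 genes marked in both replicates, 4 belonged to the longest quartile and 1, that of Kcnk4, to the second.

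CpG content of the promoter was measured as the ratio of observed to expected CpG within 1 kb of the 5′ end. Its median was 0.475 over Kcn genes and 0.474 over all protein-coding genes, and 47 Kcn genes lay above and 47 below the median of all genes. Above it, 16 promoters held a peak in replicate 1 (34.0%) and 10 in replicate 2 (21.3%), against 4.75% and 5.03% of all promoters above it. Below it, the Kcn counts were 5 (10.6%) and 6 (12.8%), against 3.00% and 3.28%. Kcnk4, Kcnk9, Kcnk12 and Kcnb2 were above the median.

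**Figure D3:**
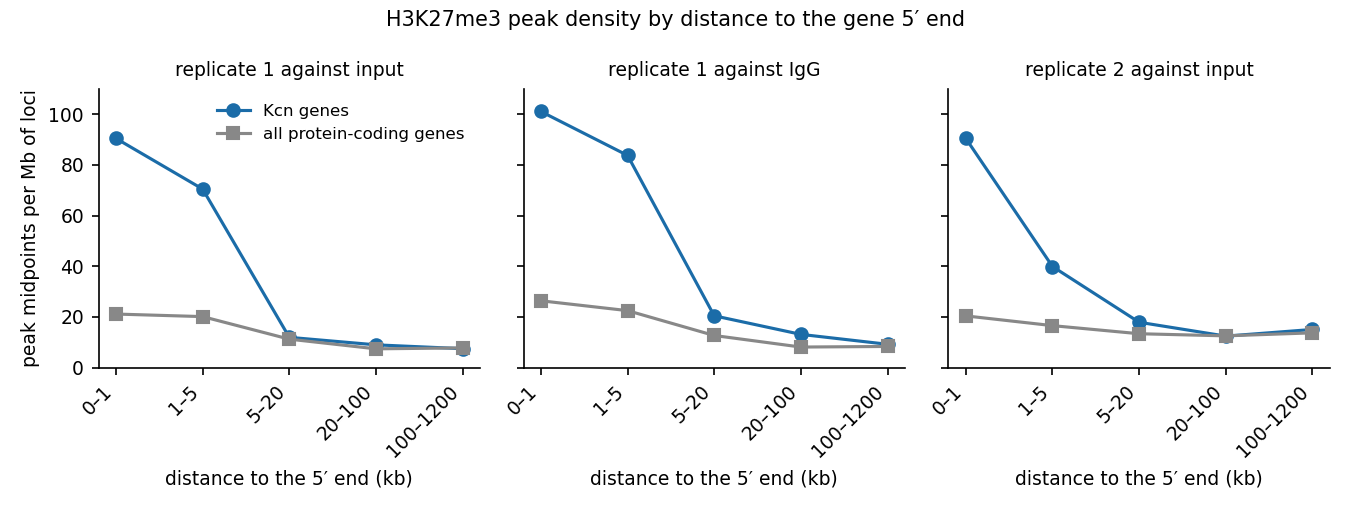
Peak midpoints per Mb of locus by distance to the gene 5′ end in kb, in 1 panel per list, for Kcn genes (blue circles) and all protein-coding genes (gray squares). In replicate 1 the Kcn line starts at 90.5 per Mb within 1 kb and comes down to the gray line, at 11.9 per Mb against 11.2, from 5 to 20 kb.

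The peaks of Kcn loci were concentrated near the 5′ end. Within 1 kb of it, midpoints of replicate 1 peaks had a density of 90.5 per Mb, beside 21.1 per Mb over all protein-coding genes, and those of replicate 2 had 90.5 per Mb, beside 20.4. From 1 to 5 kb the densities at Kcn genes were 70.5 and 39.9 per Mb, beside 20.1 and 16.5. From 5 to 20 kb they were 11.9 and 17.9 per Mb, beside 11.2 and 13.3, and beyond 100 kb 7.44 and 15.03 per Mb, beside 7.75 and 13.7. The IgG-called list gave 101 per Mb within 1 kb, beside 26.4, and 83.8 from 1 to 5 kb, beside 22.5. Its densities farther out were 20.4 per Mb from 5 to 20 kb, beside 12.6, then 13.1 up to 100 kb, beside 8.08, and 9.18 beyond, beside 8.32. From 20 to 100 kb, the densities against input were 8.96 per Mb in replicate 1 and 12.4 in replicate 2, beside 7.38 and 12.5. The widest gap between Kcn genes and all genes lay within 5 kb of the 5′ end in each list. Farther out, smaller gaps remained up to 100 kb in the IgG-called list, from 5 to 20 kb in replicate 2 and from 20 to 100 kb in replicate 1.

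With the window widened to 5 kb, 44 Kcn genes had a peak in replicate 1 (46.8%, beside 11.7% of all), 33 in replicate 2 (35.1%, beside 13.2%) and 23 in both (24.5%, beside 4.31%). The 18 genes added in both replicates included Kcna2, Kcna6, Kcnc1, Kcnc2, Kcng4, Kcnh3, Kcnh5, Kcnj5, Kcnj9, Kcnj10, Kcnk3, Kcnk13, Kcnk15, Kcnk18, Kcnmb3 and Kcns1. Of the 23, Kcna2, Kcnk9 and Kcnk13 had at least 2 peaks within 5 kb in each replicate.

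Single peaks rarely coincided. Of 158 replicate 1 peaks in Kcn loci, 7 shared at least 1 base with a replicate 2 peak (4.43%), beside 2.85% of all nuclear peaks of that replicate. Seen from replicate 2, the 7 were 3.52% of 199 peaks, beside 1.90% of all. A replicate 2 peak lay within 5 kb of 49 replicate 1 peaks (31.0%, beside 31.8% of all), a share near the background. In the other direction, a replicate 1 peak lay within 5 kb of 51 replicate 2 peaks (25.6%, beside 16.8% of all), a higher share. Besides the promoter peaks of Kcnk9, Kcnk4 and Kcnb2, the coinciding peaks were at 4 genes. At Kcnj10 they lay upstream, with midpoints 3177 bp (replicate 1) and 3230 bp (replicate 2) from the 5′ end, and at Kcnh3 upstream as well, 3272 and 3423 bp away. The other pairs were intronic, 4550 and 4587 bp inside Kcnk13 and, far from the 5′ end, 401694 and 401680 bp inside Kcnma1, the gene of the large-conductance calcium-activated channel. The replicate 1 peaks called against input and against IgG, which share a ChIP library, overlapped at 73 of the 158 (46.2%, beside 51.0% of all).

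Most peaks of Kcn loci were intronic. In replicate 1, 104 of 158 lay in introns, 21 touched an exon, 28 lay in the upstream flank and 5 in the downstream flank. In replicate 2 the counts were 152, 21, 18 and 8 of 199. For 129 replicate 1 peaks (81.6%) and 158 replicate 2 peaks (79.4%) the Kcn gene had the nearest 5′ end of any protein-coding gene. Neither these shares nor the positions were set beside all loci or the intron sequence available, so they do not set Kcn peaks apart. The peaks resembled the rest of each list in size, with a median fold enrichment of 2.64 in replicate 1 and 2.45 in replicate 2, beside 2.63 and 2.45 over all peaks. The lowest pileup of the list accounted for 39.2% of them in replicate 1 and 36.7% in replicate 2.

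As a level, the share of bases of a locus that lay in peaks averaged 0.433% over the 94 Kcn loci in replicate 1, 0.526% against IgG and 0.511% in replicate 2. The mean of the replicates was 0.472% ± 0.0555 (SD, n = 2) for Kcn loci and 0.269% ± 0.0661 (SD, n = 2) for all protein-coding loci. Peaks per Mb of Kcn loci numbered 13.9 in replicate 1 and 17.6 in replicate 2, beside 10.5 and 13.9. Across the 94 loci, covered share in replicate 1 and in replicate 2 had a Spearman rho of 0.270 and a Pearson r of 0.144, as a description, since loci of the same libraries share their depth and differ in length. Over all genes rho was 0.307 and r was 0.685.

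**Figure D4:**
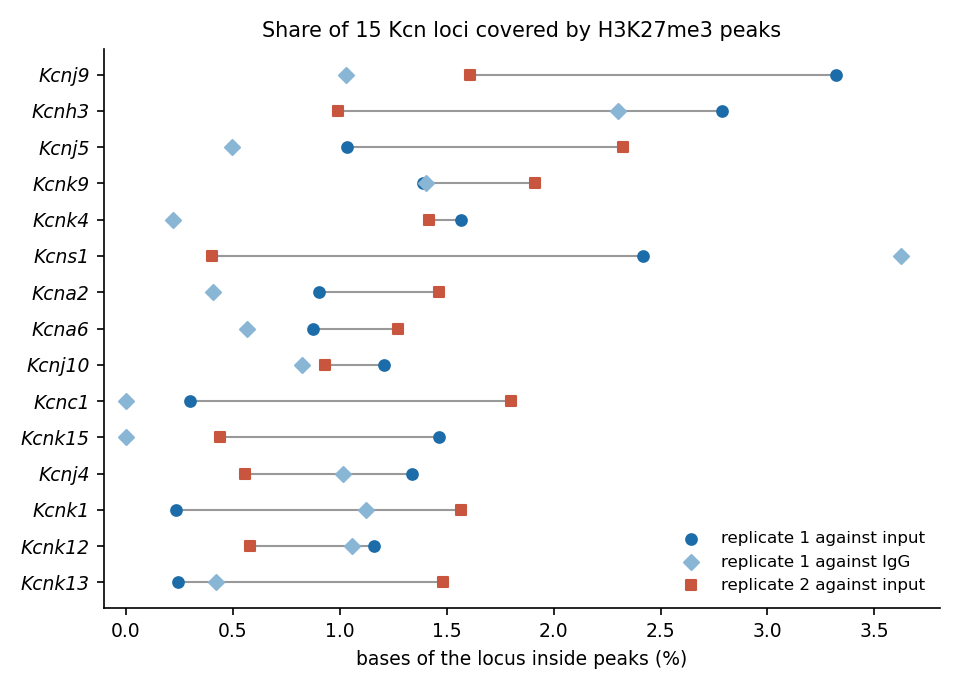
Percent of the bases of a locus inside peaks, in replicate 1 against input (circles), against IgG (diamonds) and in replicate 2 (squares), for the 15 Kcn loci with the highest mean of the replicates among those with a peak in both. Gray lines join the replicates. They are close at Kcnk4, at 1.57% and 1.42%, and far apart at Kcns1, at 2.42% and 0.406%.

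By the mean of the replicates against input, among loci with a peak in both, the covered share was highest at Kcnj9, which encodes the inward rectifier subunit GIRK3, with 3.32% of an 18.8 kb locus in replicate 1, 1.03% against IgG and 1.61% in replicate 2. Its 5′ end had 3 replicate 1 peaks within 5 kb, and the peak 3829 bp upstream, with a fold enrichment of 3.37, recurred against IgG. Kcnh3 followed with 2.79%, 2.30% and 0.991%. For Kcnj5 the share was higher in replicate 2 (2.32%) than in replicate 1 (1.03%) or against IgG (0.499%). Kcnk9 (1.39%, 1.41% and 1.91%) and Kcnk4 (1.57%, 0.224% and 1.42%) had values of the replicates that differed little.

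The next loci were Kcns1 (2.42% in replicate 1, 3.62% against IgG and 0.406% in replicate 2), Kcna2 (0.905%, 0.407% and 1.46%), Kcna6 (0.874%, 0.567% and 1.27%) and Kcnj10 (1.21%, 0.823% and 0.931%). At Kcnc1, for the fast channel Kv3.1, the share was 0.301% in replicate 1, 0 against IgG and 1.80% in replicate 2, so that its level rested on replicate 2. Kcnk15 (1.47%, 0 and 0.441%), Kcnj4 (1.34%, 1.02% and 0.558%), Kcnk1 (0.237%, 1.12% and 1.57%), Kcnk12 (1.16%, 1.06% and 0.580%) and Kcnk13 (0.243%, 0.424% and 1.48%) closed the set. Two-pore-domain genes made up 6 of the 15 loci, voltage-gated genes 4, inward rectifiers 4 and electrically silent subunits 1.

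Some loci with a high covered share in 1 replicate had no peak in the other, and were chosen after their values were seen. The locus of Kcna1, which encodes the axonal channel Kv1.1, had 3 peaks and 3.58% of its bases covered in replicate 1, 4.23% against IgG and 0 in replicate 2. Kcna7 had 2.92% in replicate 1, 9.06% against IgG, the highest value of any Kcn locus in any list, and 0 in replicate 2. Conversely, Kcna4, for the A-type channel Kv1.4, had 2.93% in replicate 2 and 0 in both lists of replicate 1.

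In number of peaks, long loci led. Kcnma1 held 6 peaks in replicate 1, 9 against IgG and 17 in replicate 2 over a locus of 735 kb, and Kcnip4, a Kv4 channel-interacting protein with the longest locus (1145 kb), held 6, 6 and 14. Kcnb2 held 4, 2 and 11, Kcnh7 held 6, 3 and 8, and Kcnip1, another interacting protein of Kv4 channels, held 7, 11 and 7. Across the 94 loci, length and number of peaks had a Spearman rho of 0.532 in replicate 1 and 0.713 in replicate 2, again as a description. In these long genes the covered share stayed low, at 0.0641% and 0.495% for Kcnma1 in replicates 1 and 2. A pair of shorter two-pore-domain loci stood above others of their length in replicate 1: Kcnk10 (159 kb), with 9 peaks in replicate 1, 9 against IgG and 2 in replicate 2, and Kcnk12 (62.2 kb), with 7, 5 and 4, both singled out after their values were seen.

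**Figure D5:**
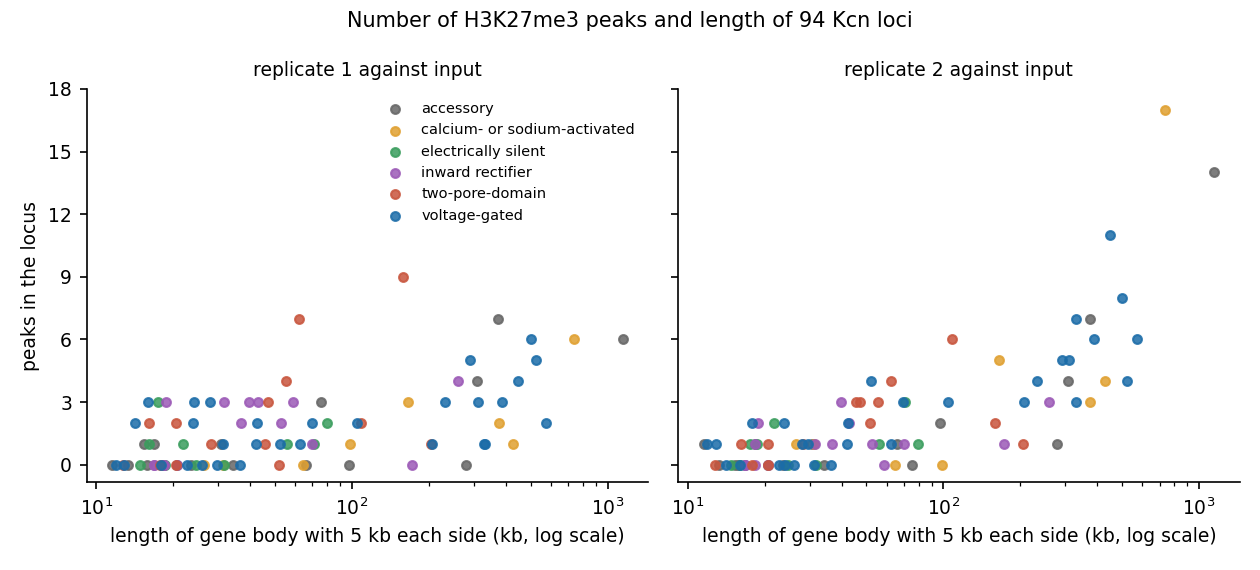
Number of peaks in each of the 94 Kcn loci against locus length in kb on a log scale, for replicate 1 (left) and replicate 2 (right) against input, colored by class. The longest loci reach 6 and 17 peaks (Kcnma1) and 6 and 14 (Kcnip4), and Kcnk10 is the highest point on the left with 9.

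In 19 Kcn loci no peak was found against input in either replicate, and 13 of them had none in any of the 3 lists. These were the voltage-gated Kcnd1, the electrically silent Kcnf1, Kcng1 and Kcnv2, the inward rectifiers Kcnj2, Kcnj8, Kcnj11 and Kcnj14, the two-pore-domain Kcnk16 and the accessory Kcne1, Kcne4, Kcnip2 and Kcnmb1. The longest of them was Kcnip2 at 34.2 kb, below the median of the family. A peak in replicate 1 alone was present in 10 loci and in replicate 2 alone in 15. Of the 94 Kcn loci, 60 held a peak in replicate 1, 65 in replicate 2 and 50 in both. Over all 21938 protein-coding genes the same counts were 5492, 7841 and 3439. The counts for 1 replicate alone are not read as a result about Kcn loci, and the 13 have no counterpart over all genes here. In each replicate, loci without a peak were rarer among Kcn genes than among all genes. A peak was present in 63.8% and 69.1% of Kcn loci in replicates 1 and 2, beside 25.0% and 35.7% of all loci. On the X chromosome, Kcnd1 had no peak, and Kcne1l had 1 peak, of 175 bp, in replicate 2, which started 501 bp inside the gene. At this depth the absence of a called peak does not show that the mark was absent.

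Several Kcn genes lie next to each other. None of 10 neighbouring pairs shared a peak in any list, which is no result about the mark. Apart from Kcnip1 and Kcnmb1, the genes of a pair were at least 11891 bp apart, too far for 1 peak to reach both loci. Kcnj9 and Kcnj10, whose 5′ ends are 11.9 kb apart, both had promoter peaks in replicate 1 and both lay among the 15 loci above. In the pair Kcnj5 and Kcnj1, 28.1 kb apart, Kcnj5 had a promoter peak in replicate 2 and Kcnj1 had none. Kcnmb1, which lies inside the gene body of Kcnip1 on the other strand, had no peak, while Kcnip1 had 7 in each replicate.

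Genes that work with potassium channels or belong to other ion channel families gave a further comparison. Of 9 partner subunits, 3 had a promoter peak in replicate 1, 2 against IgG, 3 in replicate 2 and 2 in both replicates. These were Dpp10, an auxiliary subunit of Kv4 channels, with 3 peaks in its locus in replicate 1 and 11 in replicate 2, and Abcc8, the sulfonylurea receptor, with 4 and 2. Both had promoter peaks against IgG as well. Kcnj11, the pore-forming partner of Abcc8 and its neighbour on chromosome 7, had no peak in any list. The sodium, calcium, chloride and hyperpolarization-activated (Hcn) channel genes together, 53 genes, had promoter peaks in 5, 4, 5 and 2 cases, Scn4b among the 2, which is 9.43%, 7.55%, 9.43% and 3.77%. In 33 of these 53 loci (62.3%) a peak was present in both replicates, beside 53.2% of Kcn loci and 15.7% of all loci, so that a high share of loci with a peak was found in these families too. The differences from the Kcn genes were not tested.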

How the data were processed

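The data were H3K27me3 ChIP-seq peak lists of 2 H3K27me3 libraries called against 2 inputs and 1 IgG library, from wildtype mouse molar mesenchyme, postnatal day 3. Per the study's methods and the submitters' processing notes, the authors aligned reads to GRCm38 with BWA, kept uniquely mapped reads, sorted with SAMtools and called broad peaks per library with MACS2 2.1.1 at a p cutoff of 0.005. Per the file headers, the kept tags of replicate 1 numbered 30369351 and those of replicate 2 49947919, tags were 49 and 74 bp long, and the modelled fragment lengths were 46 and 71 bp, which set the shortest peak. The pileup values the authors deposited are a signal (tag coverage averaged over a peak and scaled to the smaller library) and were divided by the scaling ratio to give tags. Fold enrichment, as deposited, is a ratio of pileup to local control background from MACS, and depends on depth. The deposited −log10 p-values were turned into p-values and are those of MACS for single peaks. The lists were also deposited in other formats, which were not used.

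Peaks and genes were intersected on GRCm38 coordinates (GENCODE M21) with Python 3.11.15, pandas 2.3.3 and numpy 2.4.6, and an overlap was at least 1 base. A promoter was 1 kb on each side of the 5′ end of the gene record, and a locus the gene body extended by 5 kb at each end. The code was tested on simulated data. Named were genes with a promoter peak in both replicates or in 1, the 15 loci of highest mean covered share with a peak in both replicates, the 5 loci with the most peaks, the longest locus without a peak and genes on X; other genes are named in lists by class or as singled out after their values were seen. Alternatives were other windows, any transcript 5′ end, peak midpoints, stricter p or fold thresholds, an equal number of peaks in replicate 2, IgG as control, and each replicate alone. The members and lists were chosen with earlier results of these data known. Some genes that met these rules are counted but not reported here by name.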

Additional observations from a re-analysis of the deposited data

How the results depend on the processing

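The Kcn counts depended on the window and on the threshold for peaks; shares of all protein-coding genes follow in parentheses. Promoters with a peak in both replicates (5) became 2, 9 and 23 with 0.5, 2.5 and 5 kb on each side (0.328%, 2.76% and 4.31%), and 0 with p of 0.001 or lower (0.0273%) and with a fold enrichment of 3 or higher (0.00912%), where 94 promoters are too few for a comparison; with 1 replicate left out the range was 16 to 21. With the 5′ end of any protein-coding transcript, 4 Kcn genes (4.26%) had a promoter peak in both replicates (1.56% of all). In the main setting these shares were 5.32% and 1.04%, a wider gap. For replicates 1 and 2 that setting gave 23 (5.04%) and 20 (5.62%). For replicate 1 (21) the windows gave 9, 33 and 44 (2.00%, 7.91% and 11.7%), and the p and fold thresholds 1 each (0.246% and 0.533%). For replicate 2 (16) the 5 kb window gave 33 (13.2%), the p threshold 3 (0.611%) and the fold threshold 0 (0.100%). Loci with a peak in both replicates (50) became 2 with the p threshold, at Kcnb2 and Kcnh7 (0.707%), and 0 with the fold threshold (0.251%). In replicate 1 the loci (60) became 7 (1.89%) and 14 (4.35%), and in replicate 2 (65) 17 (7.33%) and 1 (1.24%). This last Kcn share, 1.06%, was below that of all loci, as were the counts of 0. Mean covered share (0.472%) was 0.531% for the gene body alone (0.292%), 0.389% with replicate 2 reduced to the peak number of replicate 1 (0.225%), 0.0430% with the p threshold (0.0237%) and 0.0207% with the fold threshold (0.0116%). For 40 named loci, 260 of 320 values of covered share moved by less than 1 SD of the replicates. Among the 260 were all 40 values without replicate 1 and all 40 without replicate 2. With n = 2 these cannot move by 1 SD. Loci whose replicates differ widely have a large SD, so the count does not measure how stable a locus was. Many peaks rest on few tags, so depth limits what a single peak or a missing peak shows. No paired analysis was possible because the results come from no test.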
